A study of Mus musculus with 16 samples.

Results

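The comparison described here asks where the expression difference between naive T cells with high and with low CD5 is not the same in CD8 and in CD4 cells. For each gene, the CD5hi minus CD5lo difference in CD4 cells was subtracted from that in CD8 cells (an interaction contrast), and all 16 libraries of the study entered the fit. Of 13554 genes tested, 42 differed between the lineages by this contrast, and all 42 are accounted for below. The libraries came from lymph node T cells of C57BL/6 mice that were CD4+ or CD8+, CD25-, CD62L high and CD44 low, a naive phenotype shared by all groups. Within each lineage, 3 equal parts were formed by surface CD5, and the highest was collected as CD5hi and the lowest as CD5lo. This gave 4 groups of 4 biological replicates (CD4 CD5lo, CD4 CD5hi, CD8 CD5lo and CD8 CD5hi). The labels name no treatment and no age, and do not say whether replicates came from separate animals, so p-values measure the spread between these libraries. Because the gates are shares of a lineage, they fix a rank of CD5 and not an amount.

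CD5 is a surface receptor of T cells that dampens signalling from the T cell receptor. On naive cells its amount follows how strongly the receptor recognises self peptide and MHC, so the CD5 level is widely used to read self-reactivity. CD8 cells recognise peptide on MHC class I through a receptor aided by CD8, and CD4 cells recognise peptide on MHC class II with the aid of CD4, and the lineages are set by different transcription factors in the thymus. A gene that follows CD5 in one lineage and not in the other is what the contrast looks for.

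Libraries held 71447252 to 93418385 counts (median 78528233). Values are given as CPM (read counts scaled to the TMM-normalised library size), as mean ± SD of 4 libraries. Differences are log2 values ± SE from edgeR's quasi-likelihood test, with p-values adjusted by Benjamini-Hochberg over all genes tested. T cell genes matched the labels: Cd3e was at 313 to 482 CPM in all libraries, Cd4 at 971 to 1268 CPM in the CD4 libraries, and Cd8a at 1563 to 2140 CPM in the CD8 libraries. In 3 libraries the 17 B cell markers found in the table summed to 400 CPM (CD4 CD5lo replicate 3), 628 CPM (CD8 CD5lo replicate 3) and 1021 CPM (CD8 CD5hi replicate 4), against 11.5 to 74.8 CPM in the other 13. The CD8 libraries among these 3 also held Cd4 RNA, at 27.2 and 62.2 CPM, which in the remaining CD8 libraries reached no more than 2.51 CPM. The contrast is therefore given with all 16 libraries and without these 3. In bulk RNA of this kind, fewer cells of a type and less RNA per cell cannot be told apart.

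In both lineages, CD5hi cells held more RNA of Cd5, of its sister receptor Cd6 and of the long noncoding RNA between them, and these differences were larger in CD4 cells. The folate receptor family gene Izumo1r and the ectonucleotidase gene Nt5e followed the same pattern. A set of genes including Stmn1, Tbkbp1 and Pdgfb rose with CD5 in CD8 cells and did not pass in CD4 cells, and another, including Itga9 and Gucy1a3, rose in CD4 cells and did not pass in CD8 cells. Itga7, Akap12, Trib2, Trps1 and Myo1f changed in opposite directions. In all, 42 of 13554 genes (0.310%) passed, 24 with a contrast above 0 (0.177%) and 18 below 0 (0.133%), of which 14 and 10 had a size of at least 2-fold. A contrast above 0 means that the CD5hi to CD5lo difference was more positive in CD8 than in CD4 cells. At an unadjusted p under 0.05 there were 1021 genes. The same fit called 1282 genes in CD8 cells (9.46%; 806 or 5.95% higher and 476 or 3.51% lower in CD5hi) and 553 in CD4 cells (4.08%; 363 or 2.68% higher and 190 or 1.40% lower). Without the 3 libraries the contrast called 129 of 13570 genes (0.951%), 85 above 0 (0.626%) and 44 below 0 (0.324%). DESeq2 called 215 with all libraries (1.59%). With the replicate number as a block, edgeR called 379 genes by the contrast (2.80%), all of the 42 among them, 3390 in CD8 cells (25.0%) and 1312 in CD4 cells (9.68%). All further counts are without the block unless it is named. Of the 42 genes, 34 were also called in the fit without the 3 libraries. Wfikkn2, Grifin, Matk, Smyd2, Srsf12, Lair1, Car2 and Fam135b were not (edgeR adjusted p from 0.0502 for Wfikkn2 to 0.0903 for Grifin).

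The 42 genes were sorted by the single-lineage tests. In CD8 cells alone, 13 were higher and 2 lower in CD5hi. In CD4 cells alone, 7 were higher and 7 lower. Another 8 changed in the same direction in both lineages by different amounts, and 5 changed in opposite directions. With the replicate block the 379 genes held 196 called in CD8 cells only, 72 in CD4 cells only, 74 in the same direction and 35 in opposite directions. A gene can pass in one lineage, miss in the other and not pass the contrast itself. Of 595 genes that were higher in CD8 CD5hi and not called in CD4 cells, 13 (2.18%) did, and 517 had the same sign in CD4 cells. Of 368 that were lower in CD8 CD5hi only, 2 did (0.543%). For CD4 cells the shares were 7 of 151 higher genes (4.64%) and 7 of 83 lower genes (8.43%). With the block these shares were 9.48% of 1308, 5.94% of 1213, 14.2% of 261 and 19.2% of 182. The 5 genes called in opposite directions in the single-lineage tests all passed the contrast. CD5hi and CD5lo libraries did not overlap in CD4 cells for 29 of the 42 genes and in CD8 cells for 32, where 9.29% and 14.8% of all tested genes did not overlap. The contrast that chose the 42 uses the same values, so nothing is read from these counts.

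**Figure D1:**
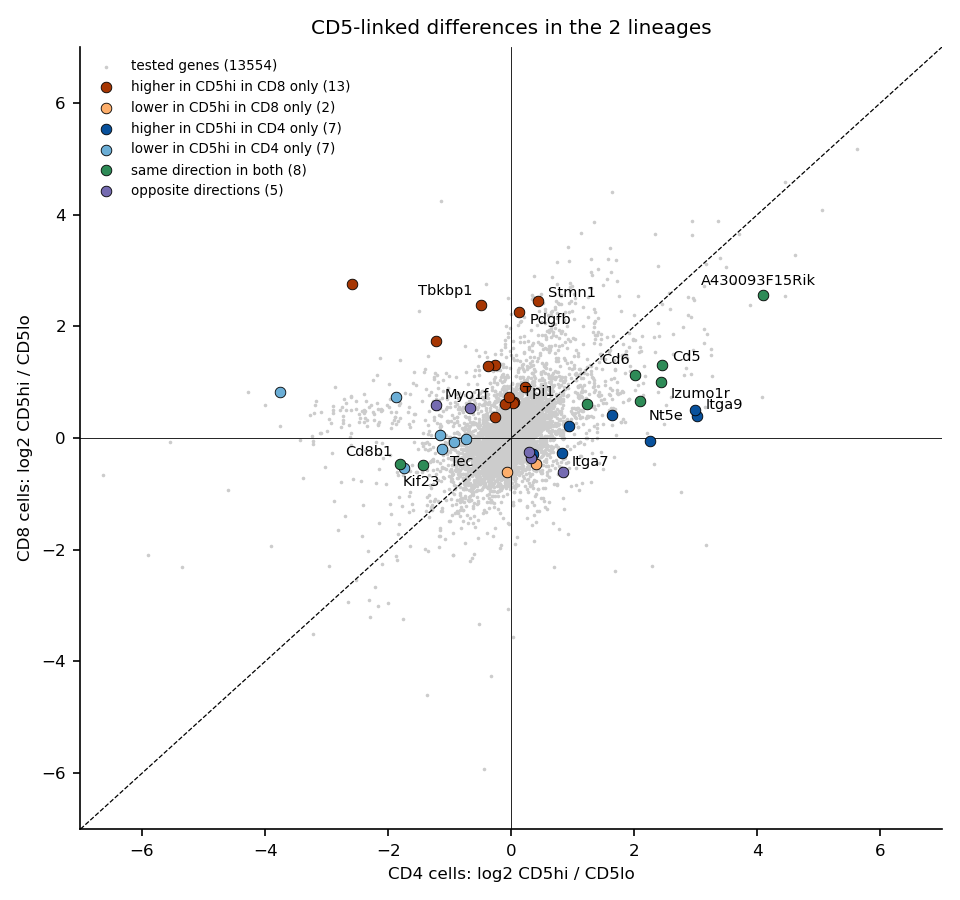
Each point is a gene, with its log2 CD5hi to CD5lo difference in CD4 cells on the x axis and in CD8 cells on the y axis. Grey points are all 13554 tested genes, coloured points the 42 that passed the contrast, sorted by the single-lineage tests, and the dashed line marks equal differences. Cd5, Cd6, A430093F15Rik, Izumo1r and Nt5e lie below that line on the right, and Stmn1, Pdgfb and Tbkbp1 lie near 0 on the x axis and above 2 on the y axis.

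Among the 18 genes with a contrast below 0, the 3 with the smallest adjusted p were neighbours. Cd5 (GRCm38 chr19:10717116-10739002, minus strand) and Cd6 (chr19:10789341-10830058, minus strand) encode related scavenger receptor proteins of the T cell surface. A430093F15Rik (chr19:10740947-10786043, plus strand) is annotated as a processed transcript without a coding sequence. It starts 1944 bp beyond the start of Cd5, runs away from it, and ends 3297 bp before Cd6. Cd5 and Cd6 are 50338 bp apart. The 250 bases before the annotated starts of Cd5 and A430093F15Rik are shown because these starts face away from each other and the pair differed in the same way. They are RefSeq sequences (GRCm38.p6, 5′ to 3′ on the gene's own strand, chr19:10738975-10739224 minus strand for Cd5 and chr19:10740697-10740946 plus strand for A430093F15Rik). Capitals mark matches, on either strand, to 2 of the motifs searched, CCAAT (the CCAAT box) and TTTGAA (the CHR element), found in 37.5% and 18.3% of the 27025 genes' promoters of this length.
Cd5: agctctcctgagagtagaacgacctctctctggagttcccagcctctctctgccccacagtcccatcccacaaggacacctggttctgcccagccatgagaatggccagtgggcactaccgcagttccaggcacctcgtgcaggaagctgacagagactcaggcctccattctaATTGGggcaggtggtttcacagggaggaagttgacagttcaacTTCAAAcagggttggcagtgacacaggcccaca
A430093F15Rik: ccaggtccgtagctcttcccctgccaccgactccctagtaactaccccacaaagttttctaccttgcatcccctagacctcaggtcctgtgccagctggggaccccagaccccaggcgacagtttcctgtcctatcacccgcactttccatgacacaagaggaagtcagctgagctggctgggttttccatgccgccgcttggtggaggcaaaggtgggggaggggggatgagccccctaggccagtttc
The Cd5 window holds 1 match to each, and that of A430093F15Rik holds 0. A match describes letters only.

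Cd5 RNA was at 276, 237, 267 and 239 CPM in CD4 CD5lo and at 1427, 1349, 1368 and 1399 CPM in CD4 CD5hi. In CD8 CD5lo it was at 196, 203, 216 and 187 CPM and in CD8 CD5hi at 469, 552, 477 and 493 CPM. All CD5hi libraries lay above all CD5lo libraries, and the CD4 CD5hi libraries stood highest by a wide margin. The difference was 2.44 ± 0.07 in CD4 cells, or 5.44-fold, and 1.31 ± 0.07 in CD8 cells, or 2.48-fold, and the contrast was -1.13 ± 0.10 (edgeR adjusted p = 3.10e-05). So the sort by rank gave a wider span of Cd5 RNA in CD4 than in CD8 libraries, and the part of this wider span in the other genes below was not tested.

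A430093F15Rik was at 4.69, 5.64, 5.19 and 4.87 CPM in CD4 CD5lo and at 92.4, 83.2, 87.9 and 85.0 CPM in CD4 CD5hi. In CD8 cells it went from 8.10, 7.38, 8.87 and 5.75 CPM to 43.5, 48.0, 46.2 and 39.7 CPM. It was thus lower in CD4 than in CD8 cells at low CD5 and higher at high CD5. The difference was 4.10 ± 0.12 in CD4 cells (17.1-fold) and 2.56 ± 0.11 in CD8 cells (5.90-fold), with a contrast of -1.53 ± 0.15 (edgeR adjusted p = 0.000157). Cd6 was at 368, 328, 393 and 343 CPM in CD4 CD5lo and at 1497, 1350, 1462 and 1438 CPM in CD4 CD5hi. Its CD8 values were 328, 349, 365 and 324 CPM at low CD5 and then 757, 807, 719 and 710 CPM. The lineages were close at low CD5 (CD8 minus CD4 -0.07) and parted at high CD5 (-0.94), and the contrast was -0.87 ± 0.10 (edgeR adjusted p = 0.000388).

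The 3 calls held in every fit that left out 1 library. The annotation places 14 other tested genes within 200 kb of these 3, among them Vps37c, Ddb1, Slc15a3 and Prpf19. None of the 14 passed edgeR's test of the contrast or of either single-lineage difference (1 had an unadjusted p under 0.05 for the contrast, Vps37c). Their contrasts ran from -0.40 to 0.62, and the lowest adjusted p was 0.650 for Vps37c, the nearest on the Cd5 side. Its difference was 0.28 ± 0.11 in CD4 cells (adjusted p = 0.243) and -0.05 ± 0.11 in CD8 cells.

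**Figure D2:**
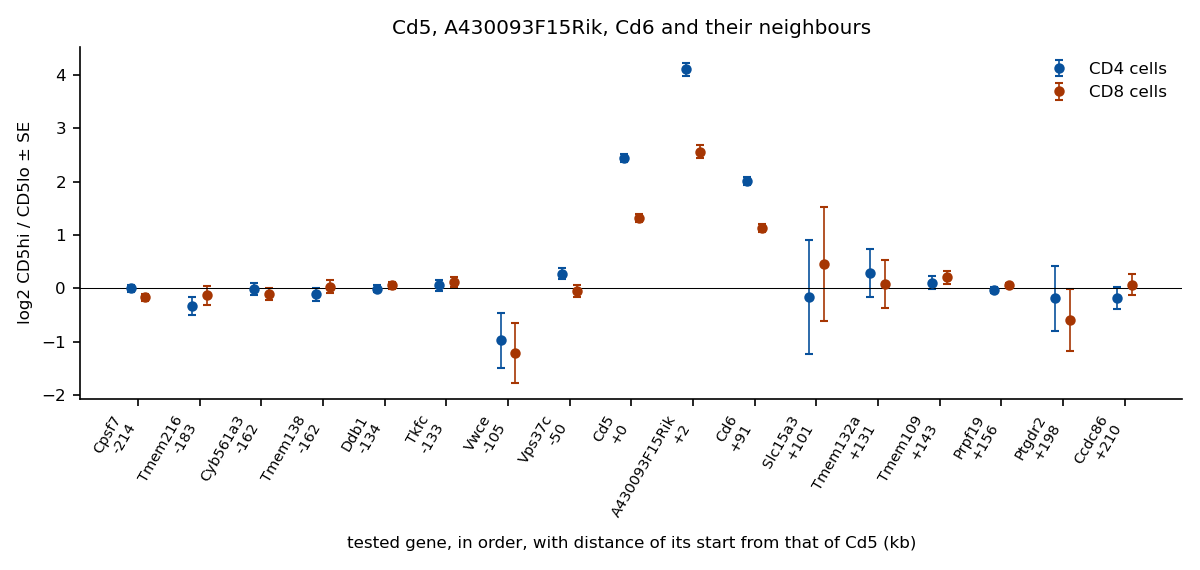
The y axis gives the log2 CD5hi to CD5lo difference ± SE (4 libraries a group) in CD4 cells (blue) and CD8 cells (brown) for each tested gene around Cd5. Genes are in order along chromosome 19, with the distance of their start from that of Cd5 in kb. Cd5, A430093F15Rik and Cd6 stand apart from the 14 neighbours, with the CD4 value above the CD8 value in each.

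Outside this locus, 3 further genes rose with CD5 in both lineages and more so in CD4 cells. Izumo1r encodes folate receptor 4, known as a surface marker of regulatory and anergic CD4 cells, and Nt5e encodes CD73, which makes adenosine from AMP outside the cell. Ephx1 encodes microsomal epoxide hydrolase. Izumo1r was at 56.7, 39.1, 53.4 and 45.7 CPM in CD4 CD5lo and at 313, 221, 256 and 258 CPM in CD4 CD5hi, against 31.6, 29.0, 39.9 and 29.7 CPM in CD8 CD5lo and 79.3, 61.2, 56.3 and 65.7 CPM in CD8 CD5hi. CD5hi and CD5lo did not overlap in either lineage, and the CD4 fold was 5.38 and the CD8 fold 2.01. The contrast was -1.42 ± 0.20 (edgeR adjusted p = 0.00662) and held without any single library.

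Nt5e was at 3.92, 5.24, 5.17 and 2.87 CPM in CD4 CD5lo and at 20.7, 20.4, 17.3 and 14.8 CPM in CD4 CD5hi. The CD8 values were 16.9, 15.3, 14.1 and 14.1 CPM in CD5lo and 27.1, 24.5, 22.1 and 21.8 CPM. High CD5 brought the CD4 libraries near the level of the CD8 libraries, so the lineage difference narrowed from 1.81 to 0.38. The contrast was -1.43 ± 0.23 (edgeR adjusted p = 0.0172), and it was lost without CD8 CD5lo replicate 2 (adjusted p = 0.0513). Ephx1 rose by 1.23 ± 0.08 in CD4 cells, from 83.0 ± 6.25 to 195 ± 18.3 CPM, and by 0.60 ± 0.08 in CD8 cells, from 103 ± 5.99 to 156 ± 9.58 CPM (contrast -0.63 ± 0.11, edgeR adjusted p = 0.0229). Its call was lost in 7 of the 16 fits that left out 1 library (highest adjusted p 0.0653, without CD8 CD5lo replicate 4).

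Among the genes that rose in CD4 cells only, Itga9, the alpha-9 integrin chain, had the largest CD4 difference. It was at 0.310, 0.244, 0.509 and 0.358 CPM in CD4 CD5lo and at 2.56, 3.36, 3.19 and 2.44 CPM in CD4 CD5hi, and between 0.205 and 0.445 CPM in all 8 CD8 libraries. The CD4 CD5hi libraries alone stood above 1 CPM. The fold was 8.09 in CD4 cells, the difference in CD8 cells was 0.40 ± 0.25 (adjusted p = 0.385), and the contrast was -2.62 ± 0.35 (edgeR adjusted p = 0.00479). Gucy1a3, the alpha-1 subunit of the nitric oxide receptor guanylate cyclase, rose in CD4 cells from 0.167 ± 0.05 to 1.33 ± 0.125 CPM, while it was at 0.456 ± 0.158 and 0.649 ± 0.186 CPM in CD8 cells. Its contrast was -2.47 ± 0.41 (edgeR adjusted p = 0.0196), lost without CD8 CD5hi replicate 2 (adjusted p = 0.0597). These levels are low: fewer than 5 CPM in every group.

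Tnfrsf4 encodes the costimulatory receptor OX40, which activated and regulatory T cells carry. It was at 16.4, 15.6, 15.3 and 13.5 CPM in CD4 CD5lo and at 26.5, 23.4, 29.7 and 27.9 CPM in CD4 CD5hi, without overlap. In CD8 cells it was at 10.4, 10.2, 11.0 and 12.7 CPM and at 6.49, 8.58, 8.79 and 12.8 CPM, which overlap. The 12.8 CPM belongs to CD8 CD5hi replicate 4, which is rich in B cell markers. Without the 3 libraries rich in these markers, Tnfrsf4 was called in opposite directions. Its CD8 difference was then -0.47 ± 0.14 (edgeR adjusted p = 0.0499) and its CD4 difference 0.83 ± 0.13. The contrast was -1.10 ± 0.22 with all 16 libraries (edgeR adjusted p = 0.0454). The others in this class were Wfikkn2, a secreted protease inhibitor that binds growth factors of the TGF-beta family (3.10 ± 0.427 to 9.68 ± 0.721 CPM in CD4 cells), Syt11, a synaptotagmin of vesicle traffic (16.0 ± 2.40 to 30.8 ± 1.71), and Matk, a kinase that restrains Src family kinases (36.4 ± 4.26 to 46.7 ± 3.69). In CD8 cells Matk went the other way without overlap, from 72.2 ± 6.57 to 59.3 ± 0.811 CPM, and was not called (-0.28 ± 0.09, edgeR adjusted p = 0.0588). The CD8 differences of Wfikkn2 and Syt11 were above 0 and not called (0.41 ± 0.15 and 0.22 ± 0.09, adjusted p = 0.113 and 0.166). Syt11 and Matk were narrower between lineages at high CD5, with contrasts of -0.73 ± 0.13 and -0.64 ± 0.13. The fatty acid transporter gene Slc27a6 was mainly a CD8 transcript, at 2.44 ± 0.188 and 2.34 ± 0.409 CPM there, and rose in CD4 cells from 0.0395 ± 0.0159 to 0.193 ± 0.0855 CPM. Leaving out single libraries ended the call in 7 fits for Wfikkn2, 9 for Syt11, 13 for Slc27a6 and 14 each for Tnfrsf4 and Matk (highest adjusted p 0.108, for Tnfrsf4 without CD8 CD5hi replicate 2).

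Izumo1r, Nt5e and Tnfrsf4 stand on the list of 20 regulatory T cell genes, of which 19 were tested. By the contrast 3 of the 19 were below 0 and called (background 0.133%) and 0 above 0. With the replicate block 5 were called below 0, where 174 of all 13554 genes tested were. The list's median without the block was -0.60 with 15 members below 0, where all genes tested had a median of -0.00 and 49.7% above 0. In the single-lineage tests 11 of the 19 were higher in CD4 CD5hi (background 2.68%) and 7 in CD8 CD5hi (background 5.95%). Foxp3, which specifies regulatory T cells, was at 4.05, 3.98, 5.96 and 5.86 CPM in CD4 CD5lo and at 14.4, 17.8, 15.4 and 22.1 CPM in CD4 CD5hi. In CD8 cells it was at 1.45, 1.70, 4.16 and 1.59 CPM and at 1.47, 2.35, 1.77 and 8.31 CPM, where the highest value of each group belongs to a library rich in B cell markers. Its contrast was -1.17 ± 0.65 with all libraries (edgeR adjusted p = 0.781) and -1.66 ± 0.29 without the 3 (adjusted p = 0.0178). Without the 3 libraries Gpr83, a receptor of regulatory T cells, was called as well (-1.09 ± 0.18, adjusted p = 0.0125), 5 of 19 in all (background below 0, 0.324%). The summed level of the list was 208 to 261 CPM in CD4 CD5lo, 551 to 632 CPM in CD4 CD5hi, and 536 to 738 CPM over the CD8 libraries, where Itgae alone averaged 439 CPM in CD5lo and 267 CPM in CD5hi. The part that Foxp3-expressing cells may have in the CD4 values of Izumo1r, Nt5e and Tnfrsf4 was not tested.

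The smallest adjusted p of the contrast belonged to Cd8b1, which encodes the CD8 beta chain (GRCm38 chr6:71322788-71337494, plus strand). It fell with CD5 in both lineages, and more steeply in CD4 cells, where it is a minor transcript. It was at 29.6, 25.5, 30.3 and 27.2 CPM in CD4 CD5lo and at 7.72, 7.50, 8.34 and 8.42 CPM in CD4 CD5hi. In CD8 cells it was at 1462, 1333, 1200 and 1319 CPM and at 1046, 951, 947 and 905 CPM. The groups did not overlap in either lineage, and the CD4 difference was -1.82 ± 0.08 and the CD8 difference -0.47 ± 0.07. The contrast was 1.35 ± 0.11 (edgeR adjusted p = 1.60e-05) and held without any single library.

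Other CD8 lineage genes were read beside it. Of 9 on that list Cd8b1 alone passed the contrast (background above 0, 0.177%), and 8 of 9 had values above 0 (median 0.67), where 49.7% of all genes tested did. Cd8a, the partner chain, fell in CD4 cells from 5.43 to 1.39 CPM on average, with 11.4 CPM in CD4 CD5lo replicate 3, and its contrast was 1.66 ± 0.55 (edgeR adjusted p = 0.323; 0.98 and adjusted p = 0.502 without the 3 libraries). In CD4 CD5lo, Cd8b1 stood at 2.12% of its level in CD8 CD5lo, while the other 8 ran from 0.275% for Cd8a through 0.383% for Itgae, 0.446% for Nkg7, 9.27% for Klrd1, 11.2% for Cst7, 16.1% for Ctsw and 43.7% for Crtam to 46.4% for Runx3. In CD4 CD5hi, Cd8b1 stood at 0.831% of its level in CD8 CD5hi, and the others ran from 0.0688% for Nkg7 to 53.2% for Runx3. The summed level of the 9 genes was 212 to 280 CPM in CD4 CD5lo and 228 to 284 CPM in CD4 CD5hi. The part of RNA from CD8 cells in the CD4 values of Cd8b1 was not tested.

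Of the genes that fell in CD4 cells only, Tec, a kinase that acts downstream of the T cell receptor, was at 18.0, 17.6, 16.9 and 15.5 CPM in CD4 CD5lo and at 8.18, 7.48, 8.33 and 7.05 CPM in CD4 CD5hi. Its levels in CD8 cells were 33.5, 26.1, 27.7 and 25.7 CPM and 28.9, 22.0, 23.4 and 24.0 CPM, which overlap. The contrast was 0.93 ± 0.14 (edgeR adjusted p = 0.0160), lost without CD8 CD5lo replicate 2 (adjusted p = 0.0513). Tec was the 1 gene called among 29 of proximal T cell receptor signalling (background above 0, 0.177%). Kif23, a kinesin that acts at cytokinesis, fell in both lineages, from 33.3 ± 1.71 to 12.4 ± 1.82 CPM in CD4 cells and from 52.1 ± 4.83 to 37.1 ± 7.69 CPM in CD8 cells (contrast 0.94 ± 0.18, edgeR adjusted p = 0.0423). Its direction was opposite to that of the other mitosis genes described below.

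Sestd1, a phospholipid-binding protein with spectrin repeats, was mainly a CD4 transcript and fell there from 12.7 ± 0.705 to 5.67 ± 0.963 CPM, while it was at 2.47 ± 0.36 and 2.55 ± 0.452 CPM in CD8 cells (contrast 1.21 ± 0.21). Firre, a nuclear long noncoding RNA from the X chromosome, fell in CD4 cells from 19.4 ± 2.14 to 10.1 ± 1.19 CPM, down to the level of the CD8 libraries (11.6 ± 1.12 and 11.0 ± 1.51). Lair1, an inhibitory receptor for collagen, went from 11.4 ± 0.899 to 6.83 ± 0.896 CPM in CD4 cells and was at 8.13 ± 0.482 and 8.06 ± 0.582 CPM in CD8 cells. Carbonic anhydrase gene Car2 fell in CD4 cells from 7.57 ± 1.17 to 2.26 ± 0.651 CPM, and its CD8 difference narrowly missed the threshold (-0.54 ± 0.17, adjusted p = 0.0525). The amino acid transporter gene Slc43a1 was a trace in CD4 cells, at 0.164 ± 0.0694 and 0.0433 ± 0.0222 CPM, beside 2.53 ± 0.414 and 4.21 ± 0.803 CPM in CD8 cells. Its CD8 difference was above 0 and not called (0.73 ± 0.25, edgeR adjusted p = 0.0848). Without the 3 libraries Slc43a1 was called in opposite directions (CD8 0.86 ± 0.24 and CD4 -1.55 ± 0.40, edgeR adjusted p = 0.0314 and 0.0447). Fam135b had 32 counts over the 4 CD4 CD5lo libraries and 2 over the 4 CD4 CD5hi libraries, so the size of its contrast is not read. Its counts in CD8 cells were 78 and 139. Leaving out single libraries ended the call in 4 fits for Slc43a1, 5 for Sestd1, 12 for Firre, 13 for Fam135b and Kif23, and 14 for Lair1 and Car2 (highest adjusted p 0.121, for Fam135b without CD4 CD5hi replicate 2).

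In CD8 cells only, 13 genes rose with CD5. Stmn1, which encodes the microtubule regulator stathmin and is high in dividing cells, was at 5.20, 6.17, 7.35 and 4.04 CPM in CD8 CD5lo and at 37.0, 42.0, 31.4 and 13.6 CPM in CD8 CD5hi. In CD4 cells it was at 15.1, 11.6, 13.0 and 16.6 CPM and at 19.5, 19.6, 16.6 and 20.3 CPM, which meet at 16.6 CPM. The groups did not overlap in CD8 cells, but CD8 CD5hi replicate 4 lay far below the other replicates of its group. The fold was 5.45 in CD8 cells, and the contrast was 2.01 ± 0.37 (edgeR adjusted p = 0.0278), or 2.46 ± 0.23 without the 3 libraries (adjusted p = 0.000352). Pdgfb, the B chain of platelet-derived growth factor, was at 1.57, 1.67, 2.10 and 1.03 CPM in CD8 CD5lo and at 7.31, 10.3, 7.94 and 4.97 CPM in CD8 CD5hi, and between 0.434 and 0.815 CPM in all 8 CD4 libraries. Its contrast was 2.14 ± 0.38 (edgeR adjusted p = 0.0229).

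Tpi1, the glycolytic enzyme triosephosphate isomerase, was at 41.5, 42.7, 42.9 and 43.6 CPM in CD8 CD5lo and at 72.9, 70.6, 63.9 and 59.4 CPM in CD8 CD5hi. In CD4 cells it was at 43.9, 46.3, 47.8 and 43.5 CPM and at 45.7, 43.6, 50.2 and 48.7 CPM, so that the CD8 CD5hi libraries alone stood clear of the rest. The contrast was 0.59 ± 0.10 (edgeR adjusted p = 0.0229), and Tpi1 was the 1 gene called among 21 of glycolysis (median 0.14, background above 0, 0.177%). Of 21 such genes 6 were higher in CD8 CD5hi (background 5.95%) and 2 in CD4 CD5hi (background 2.68%). Exons of Tpi1 overlap those of Spsb2 on the other strand over 1.24% of their bases, and those of Cdca7l overlap Dnah11 over 19.7%. Since the strand setting of the counting is not given here, reads of such pairs cannot be told apart.

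The remaining 10 covered several functions. Tbkbp1, an adaptor of the kinase TBK1, went from 0.501 ± 0.172 to 2.60 ± 0.552 CPM in CD8 cells, and the transcription factor gene Sox5 from 0.460 ± 0.241 to 1.52 ± 0.434 CPM. Arhgap21 went from 1.41 ± 0.368 to 3.46 ± 0.315 CPM, and BC035044 from 1.56 ± 0.401 to 3.82 ± 0.768 CPM. Others were Rcn1, a calcium-binding protein of the endoplasmic reticulum (47.7 ± 1.91 to 61.8 ± 7.35 CPM), Cdca7l, a Myc-binding protein (24.2 ± 1.95 to 40.0 ± 6.06), and Smyd2, a lysine methyltransferase (17.6 ± 0.965 to 27.3 ± 2.35). Tacc2, a microtubule-associated protein (14.6 ± 1.29 to 27.5 ± 2.51 CPM), and the splicing regulator Srsf12 (6.01 ± 0.207 to 9.13 ± 0.634 CPM) completed them. The contrasts of these 5 ran from 0.60 to 0.76. In CD4 cells Rcn1 went the other way without overlap, from 37.4 ± 0.807 to 31.3 ± 0.953 CPM, and was not called (-0.26 ± 0.07, edgeR adjusted p = 0.0685). Sox5 was also below 0 there (-1.22 ± 0.41, adjusted p = 0.147), while Tacc2 and Smyd2 were above 0 (0.23 ± 0.09 and 0.03 ± 0.08). 1700026L06Rik had 28 counts over the CD8 CD5lo libraries and 197 over the CD8 CD5hi libraries, beside 14 and 2 in CD4 cells, so its contrast is not read as a size. In the other direction, Tdrp, named for testis development, was lower in CD8 CD5hi only (212 ± 11.1 to 138 ± 5.41 CPM, against 114 ± 6.51 and 109 ± 7.24 CPM in CD4 cells). Its contrast was -0.55 ± 0.09 (edgeR adjusted p = 0.0172). Grifin, a galectin-related gene, was called as lower in CD8 CD5hi only, from 5.14 ± 0.282 to 3.73 ± 0.409 CPM. Its CD4 libraries went the other way without overlap, from 2.57 ± 0.172 to 3.38 ± 0.345 CPM, and were not called (0.40 ± 0.12, edgeR adjusted p = 0.0887).

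Many calls in this class lay near the threshold. Leaving out 1 library at a time ended the call in 1 fit for Rcn1 (without CD8 CD5lo replicate 2, adjusted p = 0.0550), 2 for Tdrp (without CD8 CD5lo replicate 2 or CD8 CD5hi replicate 2, adjusted p = 0.0550 and 0.0597), 4 for Tpi1 (highest 0.0672) and 7 for Pdgfb (highest 0.0707). It did so in 9 fits for Tacc2, Cdca7l and Tbkbp1, 12 for Stmn1, 13 for Srsf12, Arhgap21, Sox5 and 1700026L06Rik, 14 for Smyd2 and BC035044 and 15 for Grifin (highest adjusted p 0.110, for 1700026L06Rik without CD4 CD5hi replicate 2). All of the 42 genes kept the sign of the contrast in all 16 of these fits.

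The 5 genes with opposite directions fell into 2 kinds. Itga7, Akap12 and Trib2 were higher with CD5 in CD4 cells and lower in CD8 cells, and Trps1 and Myo1f were the reverse. Itga7, the alpha-7 integrin chain that binds laminin, was at 21.9, 25.6, 32.7 and 18.6 CPM in CD4 CD5lo and at 42.3, 46.2, 50.3 and 38.3 CPM in CD4 CD5hi. In CD8 cells it was at 6.53, 7.10, 7.76 and 5.61 CPM and at 3.19, 4.52, 5.28 and 4.60 CPM. CD5hi and CD5lo did not overlap in either lineage, and the contrast was -1.46 ± 0.24 (edgeR adjusted p = 0.0196; lost without CD8 CD5lo replicate 2 or CD8 CD5hi replicate 2, adjusted p = 0.0550 and 0.0597). Trib2, a pseudokinase, was at 343, 354, 337 and 339 CPM and then 415, 408, 433 and 412 CPM in CD4 cells, and at 178, 168, 167 and 166 CPM and then 143, 129, 143 and 155 CPM in CD8 cells. The folds were small, 1.22 up in CD4 cells and 1.19 down in CD8 cells. The groups did not overlap in either lineage, but nothing is read from this, since the contrast that chose Trib2 uses the same values. That contrast, -0.54 ± 0.08 (edgeR adjusted p = 0.0108), held without any single library. Akap12, a scaffold that anchors protein kinase A, moved from 15.9 ± 0.872 to 19.8 ± 1.75 CPM and from 14.4 ± 0.889 to 11.2 ± 0.929 CPM (contrast -0.68 ± 0.12). Without the 3 libraries the contrasts of all 5 passed, but the CD8 difference of Itga7 did not (-0.55, adjusted p = 0.0643), nor did the CD4 difference of Akap12 (0.33, adjusted p = 0.0802).

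Myo1f, a class I myosin of leukocytes, was at 83.6, 77.9, 73.2 and 72.6 CPM in CD8 CD5lo and at 114, 133, 117 and 100.1 CPM in CD8 CD5hi. In CD4 cells it was a trace, at 1.19, 0.964, 2.35 and 1.23 CPM and at 0.462, 0.687, 0.604 and 0.704 CPM, with its highest value in CD4 CD5lo replicate 3, one of the 3 libraries rich in B cell markers. CD4 libraries held 1.87% of the CD8 level at low CD5 and 0.529% at high CD5. Its contrast was 1.81 ± 0.29 (edgeR adjusted p = 0.0172) and 1.52 without the 3 libraries (adjusted p = 0.00244), and it was lost without CD8 CD5lo replicate 2 (adjusted p = 0.0513). Trps1, a GATA-type transcriptional repressor, was at 6.04, 8.79, 7.92 and 7.56 CPM and at 4.54, 4.55, 5.66 and 4.38 CPM in CD4 cells, and at 3.41, 3.89, 4.65 and 3.12 CPM and at 5.38, 5.47, 6.73 and 4.35 CPM in CD8 cells. The CD8 groups of Trps1 overlap, and its contrast of 1.21 ± 0.23 (edgeR adjusted p = 0.0391) was lost in 12 of 16 fits that left out 1 library, as was that of Akap12 in 8 (highest adjusted p 0.0898 and 0.0732).

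**Figure D3:**
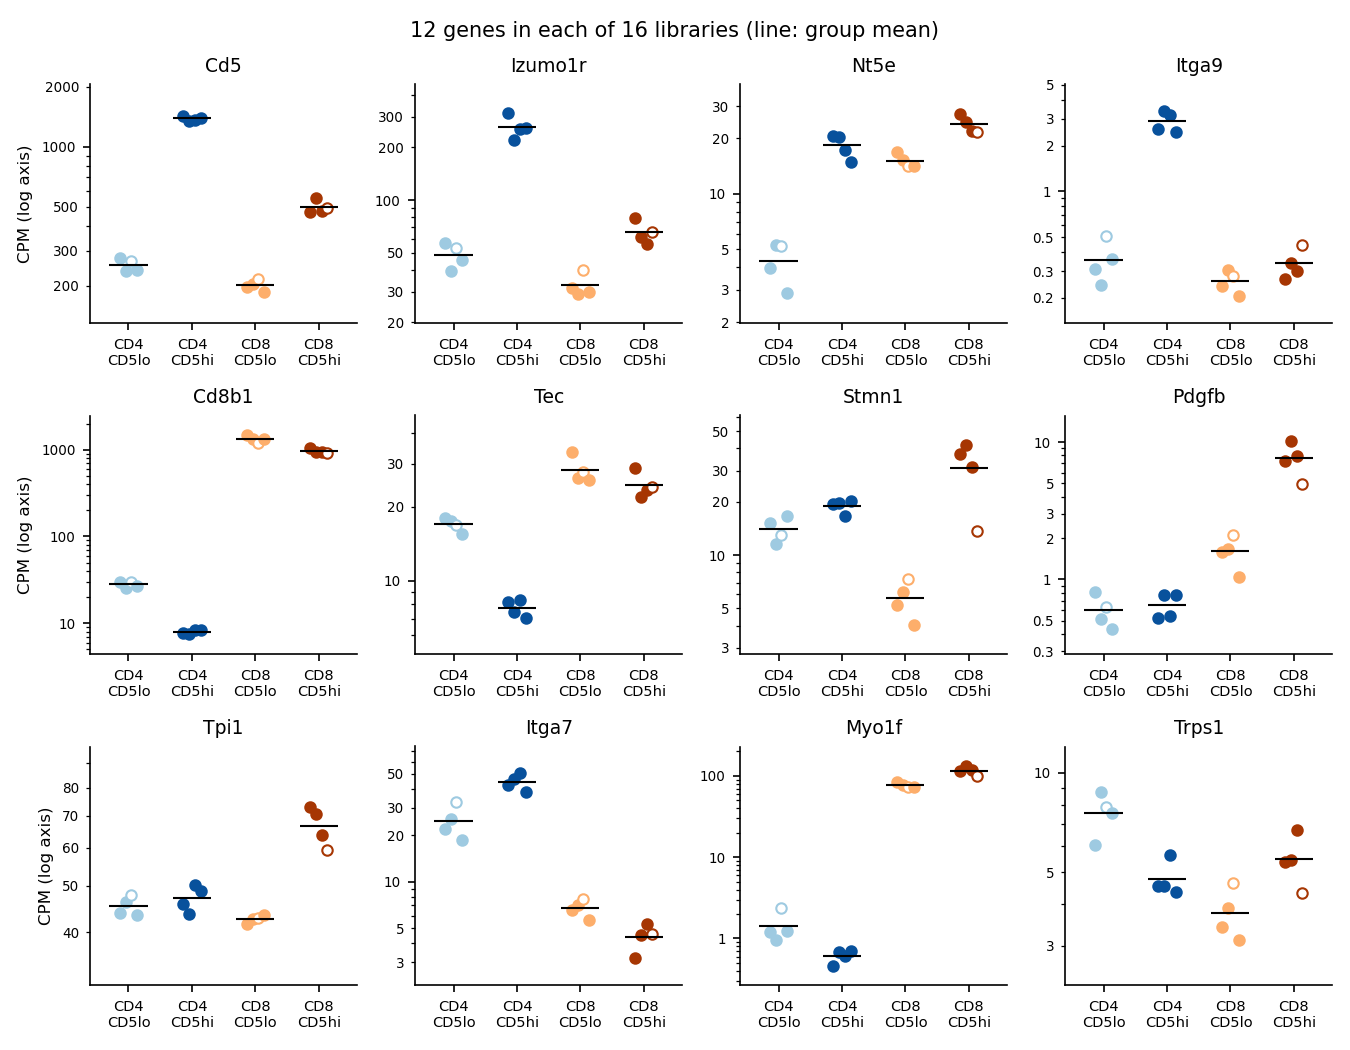
Each panel shows 1 gene in CPM on a log axis, with a point for each of the 4 libraries of a group and a line at the group mean. Open points are the 3 libraries rich in B cell markers. Cd5, Izumo1r, Nt5e and Itga9 climb more in CD4 cells, Cd8b1 and Tec fall more in CD4 cells, Stmn1, Pdgfb and Tpi1 climb in CD8 cells, and Itga7, Myo1f and Trps1 move in opposite directions.

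The contrast is also the difference between the lineages at high CD5 minus that at low CD5. Seen this way, the gap between CD8 and CD4 cells was wider at high CD5 for 22 of the 42 genes, narrower for 7, and of the other sign for 13. Cd8b1 went from 5.56 to 6.91 and Myo1f from 5.74 to 7.56 (log2 CD8 minus CD4), Itga7 from -1.87 to -3.33 and Itga9 from -0.47 to -3.09. The genes that narrowed included Nt5e (1.81 to 0.38), Sestd1 (-2.36 to -1.15) and Tdrp (0.89 to 0.34). Those that turned included Stmn1, from -1.31 to 0.71, A430093F15Rik, from 0.56 to -0.97, and Gucy1a3, from 1.44 to -1.04.

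**Figure D4:**
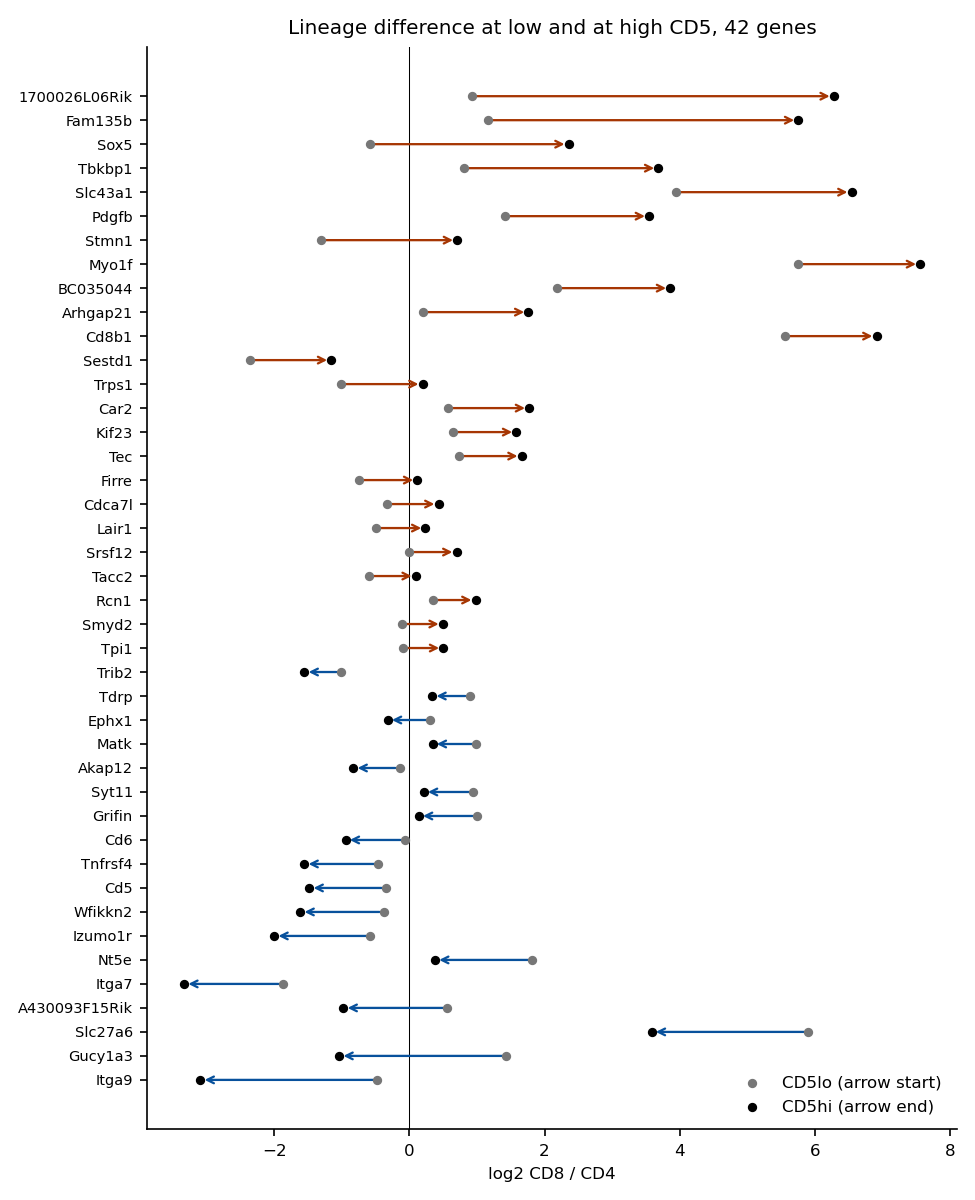
Each row is 1 of the 42 genes, and the x axis is the log2 CD8 to CD4 ratio. An arrow runs from the value in CD5lo (grey point) to that in CD5hi (black point), brown where it rises and blue where it falls. The arrows of 13 genes cross 0, those of 22 end farther from 0 than they start, and those of 7 end nearer to it.

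The lists whose calls changed most without the 3 libraries were those of the cell cycle. With all 16 libraries, 2 of 30 mitosis genes passed, Stmn1 with a rise in CD8 cells and Kif23 with a fall in both lineages, and 0 of 29 DNA replication genes passed by edgeR, where 22 had an unadjusted p under 0.05, DESeq2 called 12 and limma voom 0 (background above 0, 0.177% by edgeR and 0.944% by DESeq2). All 30 and all 29 had contrasts above 0, with medians of 1.36 and 0.66. In CD8 cells 25 mitosis genes were higher in CD5hi, 1 was lower, and 22 replication genes were higher, where the background was 5.95%. In CD4 cells edgeR called 0 of either list as higher, and Kif23 was lower. An unadjusted p under 0.05 was reached there by 6 genes of each list. Summed over the mitosis list, CD8 CD5hi libraries held 452, 491, 381 and 178 CPM, CD8 CD5lo libraries 128 to 185 CPM and CD4 libraries 107 to 138 CPM. Summed over the replication list they held 1705, 1742, 1503 and 1119 CPM, against 866 to 1026 CPM in all other libraries. CD8 CD5hi replicate 4, with the most B cell marker RNA of the 16, was the lowest of its group on both lists.

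Without the 3 libraries, 9 mitosis genes and 17 replication genes passed with contrasts above 0 (background 0.626%), with medians of 1.76 and 0.83. The replicate block with all libraries called 9 and 12, where it called 205 of all 13554 genes tested above 0 and 174 below 0. In CD4 cells, the fit without the 3 libraries called 4 replication genes as higher, Mcm3, Mcm5, Tk1 and Gins2 (background 2.70%). Leaving out CD8 CD5hi replicate 4 alone gave 9 and 20 (165 genes or 1.21% of all tested, and 0.783% above 0). Top2a, which untangles DNA, went in CD8 cells from 17.9 to 64.1 CPM and in CD4 cells from 12.6 to 17.9 CPM over all libraries, and its contrast was 1.34 ± 0.45 (edgeR adjusted p = 0.323), or 1.76 ± 0.33 without the 3 libraries (adjusted p = 0.0222). The replication helicase subunit Mcm5 went from 56.5 to 115 CPM and from 43.5 to 56.3 CPM, with a contrast of 0.65 ± 0.17 (adjusted p = 0.133), or 0.81 ± 0.12 without the 3 (adjusted p = 0.00895). The ribonucleotide reductase subunit Rrm2 had 1.89 ± 0.32, the licensing factor Cdc6 2.20 ± 0.40, cyclin gene Ccna2 2.11 ± 0.45 and the spindle protein Nusap1 2.22 ± 0.42 without the 3 libraries. The proliferation marker Mki67 did not pass in either fit (1.67 ± 0.61 and adjusted p = 0.411; 2.02 ± 0.53 and adjusted p = 0.110).

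The promoters of Mcm5, Mcm6 and Top2a are printed because these genes passed without the 3 libraries and their windows hold motifs known from genes of these phases. They are the 250 bases before the start (RefSeq, GRCm38.p6, 5′ to 3′ on the gene's strand): chr8:75109259-75109508 plus strand, chr1:128359706-128359955 minus strand and chr11:99024190-99024439 minus strand. Capitals mark E2F words in Mcm5 and Mcm6, and the CHR element and the CCAAT box in Top2a. The Mcm5 and Mcm6 windows also hold CCAAT boxes, which are not marked. The E2F words searched were TTTCCCGC, TTTGGCGC, TTTCGCGC and TTTGCCGC, the CHR element was TTTGAA and the CCAAT box CCAAT, each on both strands. In Mcm5 and Mcm6 a pair of E2F words on opposite strands overlap.
Mcm5: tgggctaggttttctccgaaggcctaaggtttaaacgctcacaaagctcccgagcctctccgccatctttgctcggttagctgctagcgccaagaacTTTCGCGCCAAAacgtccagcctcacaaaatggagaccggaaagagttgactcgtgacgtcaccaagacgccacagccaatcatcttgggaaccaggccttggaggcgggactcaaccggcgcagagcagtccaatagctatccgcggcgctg
Mcm6: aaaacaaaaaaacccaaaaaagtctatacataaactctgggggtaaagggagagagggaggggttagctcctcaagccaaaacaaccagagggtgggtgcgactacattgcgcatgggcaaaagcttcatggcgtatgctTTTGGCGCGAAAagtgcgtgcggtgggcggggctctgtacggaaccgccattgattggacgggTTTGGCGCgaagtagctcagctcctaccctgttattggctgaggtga
Top2a: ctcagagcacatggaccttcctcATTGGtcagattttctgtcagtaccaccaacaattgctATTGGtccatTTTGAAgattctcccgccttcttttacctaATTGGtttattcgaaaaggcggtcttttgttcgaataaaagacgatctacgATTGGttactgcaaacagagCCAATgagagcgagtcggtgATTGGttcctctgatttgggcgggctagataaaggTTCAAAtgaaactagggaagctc
Mcm5 holds 2 E2F words and Mcm6 holds 3, and Top2a holds 2 CHR elements and 6 CCAAT boxes. An E2F word was present in 6 of the 24 replication genes with a promoter sequence (25.0%), in 3.88% of the 10143 tested genes with one, and in 2.16% of all 27025 genes of the table. Of 24 mitosis genes, 10 held a CHR element (41.7%, against 12.8% of tested and 18.3% of all genes) and 21 a CCAAT box (87.5%, against 40.1% and 37.5%). An E2F word was in 1 of them (4.17%). The 24 replication genes held a CCAAT box in 14 (58.3%) and a CHR element in 3 (12.5%). Of the 42 genes of the contrast 28 had a promoter sequence, with an E2F word in 1 (3.57%), a CHR element in 3 (10.7%) and a CCAAT box in 7 (25.0%). These are counts of letters in a window and show no binding.

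**Figure D5:**
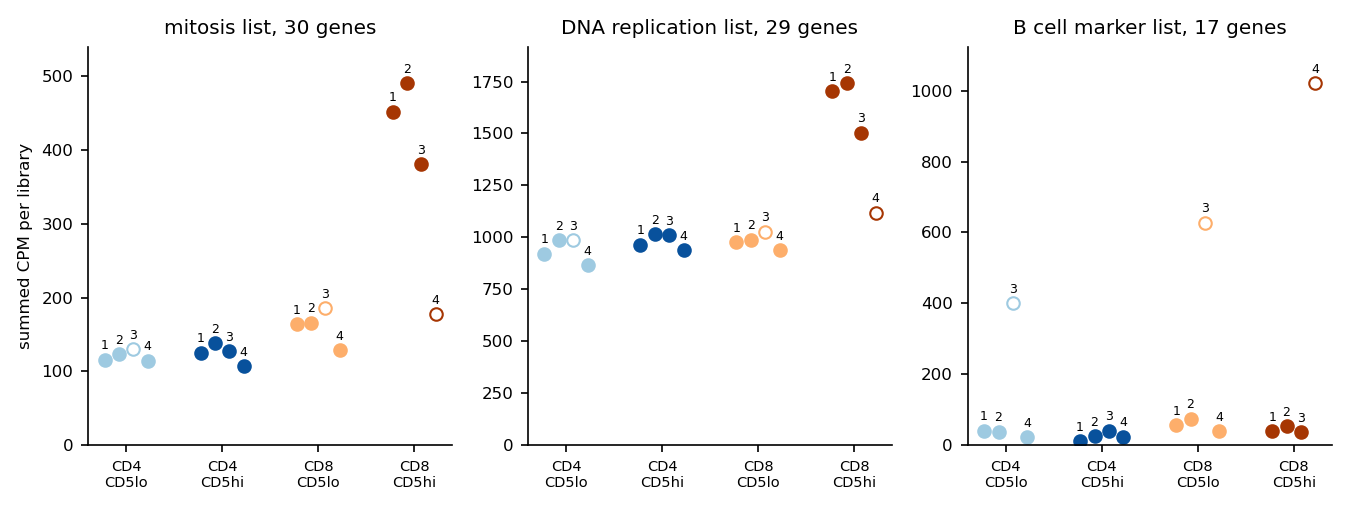
Each point is 1 library, numbered by replicate, and the y axis is the summed CPM of the mitosis list, the DNA replication list and the B cell marker list. Open points are the 3 libraries rich in B cell markers. CD8 CD5hi replicates 1 to 3 stand at 381 to 491 CPM for mitosis, and replicate 4, at 178 CPM, has the highest B cell sum, 1021 CPM.

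Without the 3 libraries 95 genes were called that were not called with all 16, 24 on the cell cycle lists and 71 others. In CD8 cells alone, 86 of the 129 genes changed (69 higher and 17 lower), in CD4 cells alone 16 (11 and 5), and 19 changed in both in the same direction and 8 in opposite directions. Tbx21, which encodes the effector transcription factor T-bet, had the largest contrast above 0 among genes of at least 5 CPM in a group, 3.05 ± 0.54 (edgeR adjusted p = 0.0178). It was at 1.70 ± 0.583 CPM in the 3 CD8 CD5lo libraries kept and at 16.2 ± 1.47 CPM in the 3 CD8 CD5hi libraries kept, beside 0.249 and 0.292 CPM in CD4 cells. With all 16 libraries its adjusted p was 0.0549. Others above 0 were Cd40lg (2.75 ± 0.35, a CD4 transcript at 0.320 and 1.94 CPM in CD8 cells), the checkpoint kinase Chek1 (2.71 ± 0.36), Plac8 (2.25 ± 0.45), the separase Espl1 (2.14 ± 0.41), Fignl1 (2.09 ± 0.42), the spindle protein Spag5 (1.98 ± 0.41) and the kinetochore motor Cenpe (1.86 ± 0.31).

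Below 0, among genes of at least 5 CPM in a group that were called only in this fit, stood Osgin1 (-2.43 ± 0.34), which fell in CD8 cells from 5.17 to 1.06 CPM, Zan (-2.40 ± 0.42), Foxp3 (above), the cation channel Trpm1 (-1.49 ± 0.30) and Il2rb, the beta chain of the IL-2 and IL-15 receptors (-1.48 ± 0.24, adjusted p = 0.0111). Zan was a trace in CD4 cells, at 0.0780 and 0.269 CPM, where its difference was called. It was at 6.95 and 4.43 CPM in CD8 cells, where it was not (edgeR adjusted p = 0.0924). With all 16 libraries the contrast of Zan was -1.14 (edgeR adjusted p = 0.751). Il2rb rose in both lineages, from 10.3 ± 1.37 to 50.6 ± 8.83 CPM in CD4 cells and from 174 ± 26.1 to 303 ± 54.0 CPM in CD8 cells. Others were Pyroxd2 (-1.30 ± 0.16), Prdm1, the transcriptional repressor Blimp-1 (-1.21 ± 0.25; 2.54 to 0.712 CPM in CD8 cells), the cytochrome P450 gene Cyp2s1 (-1.14 ± 0.19) and Tbc1d4, which regulates glucose transporter traffic (-1.13 ± 0.20). Of 39 effector and memory genes, 3 were above 0 (Tbx21, Anxa2 and S100a4) and 2 below (Il2rb and Prdm1) without the 3 libraries, where the background was 0.626% and 0.324%. Of the same list 0 passed with all 16 by edgeR, where 16 had an unadjusted p under 0.05, DESeq2 called 7 (background 1.59%) and the list's median was 1.33. S100a4 was a trace in every group of the fit without the 3 libraries. It was at 0.165 and 0.0947 CPM in CD4 cells and at 0.0476 and 0.328 CPM in CD8 cells. Cd44, a marker of memory T cells by which the sort chose low cells, was at 6.45 and 5.85 CPM in CD4 cells and at 5.81 and 14.6 CPM in CD8 cells (contrast 1.48 ± 0.50, edgeR adjusted p = 0.344). Its CD8 CD5hi libraries were at 19.7, 20.5, 7.61 and 10.7 CPM. Il2ra, which encodes the CD25 used in the gate, had a contrast of -0.39 ± 0.78 (adjusted p = 0.999), and Cd4 one of 1.21 ± 1.75 (adjusted p = 0.986). Il2ra was at 3.09 CPM in CD8 CD5lo replicate 3 and 5.91 CPM in CD8 CD5hi replicate 4, both rich in B cell markers. The other CD8 libraries held 0.832 to 1.38 CPM. Without the 3 libraries edgeR called Il2ra as higher in CD4 CD5hi.

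Other lists held few of the 42 genes. Over all genes tested, 0.177% passed the contrast above 0 and 0.133% below 0. By edgeR 0 of 31 NF-kB pathway genes passed the contrast (median -0.07), with 2 at an unadjusted p under 0.05 and 0 by DESeq2. Nfkbia had a contrast of -0.24 ± 0.32 (adjusted p = 0.981), Nfkb1 of -0.10 ± 0.08 (adjusted p = 0.949) and Rel of 0.10 ± 0.48, so moderate differences in Nfkbia and Rel are within their error. Of 34 NF-kB targets and of 25 genes induced early by the T cell receptor, Tnfrsf4 was the 1 called on each. Of 32 negative regulators of receptor signalling, 2 passed, Cd5 and Cd6, both below 0, with a list median of -0.10. Cd5 encodes the protein by which the cells were sorted, and Cd6 lies near it on the chromosome. Of 22 follicular helper and anergy genes 2 passed, Izumo1r and Nt5e, both also on the regulatory T cell list. None of the BCL2 family (15 tested), chemokine receptors (15), cytokine receptors (25), interferon-stimulated genes (49), killer lectin-like receptors (9), naive state and homing genes (18), thymocyte genes (11), fatty acid and sterol synthesis genes (29), handling stress genes (24) or ribosomal protein genes (83) passed by edgeR. Over these 10 lists 38 of 278 genes had an unadjusted p under 0.05, where 1021 of all 13554 genes tested did. Of the 38, 19 were ribosomal protein genes. DESeq2 called 8 of the 278 (background 1.59%). Of the 83 ribosomal protein genes 79 had contrasts above 0, where 49.7% of all genes tested did, with a median of 0.21 (0.23 without the 3 libraries). The 17 B cell markers had a median contrast of 3.02 with 0 called by edgeR or DESeq2 and 1 at an unadjusted p under 0.05, and a median of -0.20 without the 3 libraries.

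How much a call can bear differs among the 42. Cd5, Cd6, A430093F15Rik, Izumo1r, Cd8b1, Trib2 and Itga9 passed in all 16 fits that left out 1 library, 10 genes lost the call in 1 to 5 of these fits, and 25 in 6 or more. A group mean of at least 5 CPM was reached by 32 of the 42, and 10 stayed lower. The precision of the contrast follows the level of a gene: its median SE was 0.15 for the 9344 genes with a mean of at least 5 CPM and 0.50 for the 4210 below. Genes of low level therefore needed larger contrasts to pass.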

How the data were processed

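RNA-seq of 16 libraries was analysed from the gene-level read counts that the authors deposited in 1 table of 24421 genes, of which 6123 were at 0 in all libraries and 27 had names turned into dates. Per the submitters' processing notes, reads were processed with STAR 2.5.2a, featureCounts 1.4.6-p3 and DESeq2 on mm10. The labels' protocols name 2 library kits without saying which sample had which, and the series' design text speaks of 2 technical replicates, while the table has 1 column per sample. Even values made up 73.9% to 80.5% of counts from 1 to 9 in a library and 49.2% to 51.3% of counts of 1000 or more, so a further alternative used halved counts.

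Counts were filtered with filterByExpr (minimum count 10, minimum total 15), scaled by TMM and fitted with edgeR 4.0.16 (R 4.3.3), with 1 term per group and 12 residual degrees of freedom. Quasi-likelihood tests were two-sided, and p-values were adjusted by Benjamini-Hochberg over all genes tested, with a threshold of 0.05. The SE is the size of the log2 value divided by the square root of F. The fit was tested on simulated data. Alternatives were DESeq2 1.42.0, limma voom (limma 3.58.1), DESeq2's size factors, no filter, at least 1 CPM in 4 libraries, halved counts, a replicate block, and fits without 1 library or without 3. Same-numbered CD5lo and CD5hi libraries deviated together in all 4 pairs of CD4 cells (correlation 0.48 to 0.84) and of CD8 cells (0.40 to 0.79), and 15 of 16 pairs between the lineages did so. No label ties the numbers, so this comes from the data, and counts with the number as a block stand beside those without. Promoter and gene positions came from RefSeq (GRCm38.p6) and GENCODE vM21.

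Genes were named by rule: among called genes with at least 5 CPM in a group and no predicted name, the 14 largest contrasts each way, up to 4 per list, up to 10 with opposite directions, and the genes that define the gates and lineages. All other called genes are given to account for each, and these and the neighbours and promoters were chosen after their values were seen. The comparison and the gene lists were chosen with earlier results of these data known. Precision is limited by 4 libraries a group, and no batch is labelled.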

Additional observations from a re-analysis of the deposited data

Results flagged for a closer look

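For each of the 42 genes the difference between the lineages was itself tested, and its contrast (log2, CD8 minus CD4 difference) passed. Below 0 these were Itga9 (-2.62), Gucy1a3 (-2.47), Slc27a6 (-2.31), A430093F15Rik (-1.53), Itga7 (-1.46), Nt5e (-1.43), Izumo1r (-1.42), Wfikkn2 (-1.23), Cd5 (-1.13), Tnfrsf4 (-1.10), Cd6 (-0.87), Grifin (-0.86), Syt11 (-0.73), Akap12 (-0.68), Matk (-0.64), Ephx1 (-0.63), Tdrp (-0.55) and Trib2 (-0.54). Above 0 were the enzymes and regulators Tpi1 (0.59), Smyd2 (0.60), Rcn1 (0.63), Tacc2 (0.69), Srsf12 (0.71), Lair1 (0.73), Cdca7l (0.76), Firre (0.86), Tec (0.93), Kif23 (0.94), Car2 (1.20), Trps1 (1.21) and Sestd1 (1.21). Larger values above 0 belonged to Cd8b1 (1.35), Arhgap21 (1.57), BC035044 (1.67), Myo1f (1.81), Stmn1 (2.01), Pdgfb (2.14), Slc43a1 (2.60), Tbkbp1 (2.87), Sox5 (2.95), Fam135b (4.59) and 1700026L06Rik (5.35).

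Some values stood far from the other 3 of their group by Dixon's test, which chance does in about 1 in 20 groups. The 3 libraries rich in B cell markers stood out by the sum of those markers, at 400 CPM (CD4 CD5lo replicate 3), 628 CPM (CD8 CD5lo replicate 3) and 1021 CPM (CD8 CD5hi replicate 4). These libraries had been set apart by the same RNA, so nothing further is read from this result. The summed myeloid markers stood out in CD8 CD5lo replicate 3 (72.6 CPM), the erythroid and platelet markers in CD4 CD5lo replicate 3 (4.71 CPM) and CD8 CD5lo replicate 3 (4.61 CPM), and the natural killer cell markers in CD4 CD5hi replicate 1 (1.04 CPM). Single genes did so in CD8 CD5lo replicate 1 (Trib2 at 178 CPM, Rcn1 at 50.5 CPM and Kif23 at 59.3 CPM), in CD4 CD5hi replicate 3 (Kif23 at 15.1 CPM, Trps1 at 5.66 CPM and 1700026L06Rik at 0.0257 CPM) and in CD8 CD5lo replicate 3 (Grifin at 5.56 CPM). In CD4 cells they also did so in CD5lo replicate 1 (Grifin at 2.31 CPM), replicate 2 (Rcn1 at 38.6 CPM), replicate 3 (Firre at 16.2 CPM) and replicate 4 (Sox5 at 0.281 CPM), and in CD5hi replicate 4 (Fam135b at 0.0251 CPM). The values of Fam135b and 1700026L06Rik were 2 counts each, beside 0 in the rest of their group, so they are not read as outliers.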

How the results depend on the processing

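None of the 42 contrasts changed sign in the alternatives run. Against 42 genes with edgeR, DESeq2 called 215, the fit without the 3 libraries 129, a replicate block 379, and the block without the 3 libraries 502. DESeq2 and both blocked fits called all 42, limma voom 37, DESeq2's size factors 39, halved counts 41, the filter at 1 CPM 40 and the fit without a filter 33. Leaving out 1 library gave 8 (without CD8 CD5lo replicate 2) to 165 calls (without CD8 CD5hi replicate 4), and 313 of the 672 values of the 42 genes in these fits missed the threshold. The CD8 difference called 3390 genes with the block, 2937 with the block without the 3 libraries and 763 to 1647 without 1 library. The CD4 difference called 1312, 1165 and 382 to 635. By class, without the 3 libraries the contrast held 86 genes changed in CD8 cells only, 19 in the same and 8 in opposite directions. With the block it held 196 in CD8 cells only, 72 in CD4 cells only, 74 in the same and 35 in opposite directions. The causes were not tested.

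Same-numbered libraries of different groups deviated together in 23 of 24 pairs (correlation over 0.1, median 0.66, lowest -0.08), against a median of -0.22 for other numbers. Within each lineage all 4 pairs did, and the pair that fell short joined CD4 CD5lo and CD8 CD5hi replicates 2. Low counts limit genes under 5 CPM, and 4 libraries a group limit all of them.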
